A study of Mus musculus with 6 samples.

Results

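This account is about the genes of the splicing machinery and of the heterogeneous nuclear ribonucleoproteins (hnRNPs) in mouse leukemia labelled as a Papola knockout. Members were chosen by gene symbol alone: the SR proteins (Srsf), Tra2, hnRNP, U2AF, SF1, SF3A and SF3B, Snrp, Snrnp, PRPF, LSm, Srrm and RBM families. The table held 74 such genes among 9295, and 73 of them passed the filter on low counts. The symbol rule uses no expression value. RefSeq lists 134 protein-coding mouse genes with such symbols, of which 73 were in the table (54.5%). The other 61, among them Srsf1, Srsf2, Srsf3, Sf3b1 and every Srrm gene, were not analysed here. The remaining member, Rbm3-ps, is a pseudogene.

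The study asked what the poly(A) polymerase gene PAPOLA does in leukemia. Total RNA from the bone marrow of mice, with leukemia given as the cell type, was sequenced from 3 libraries of genotype PAPOLA KO (KO) and 3 of genotype PAPOLA flox/flox (Con), for which the labels name no Cre. The sources used here do not give the leukemia's driver, the Cre line, the age of the mice or whether a library came from 1 mouse, so p-values measure the spread between these libraries. Totals were 8875021 to 9768131 estimated counts in KO and 11253928 to 11436212 in Con.

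Introns are removed by the spliceosome, which is built from small nuclear ribonucleoproteins (snRNPs). U1 recognises the 5′ splice site, U2 the branch point with the help of U2AF, and the U4/U6.U5 tri-snRNP then joins to form the catalytic complex. SR proteins mostly promote the use of exons whose enhancers they bind, and hnRNPs often act against it. Mutations in several of these genes occur in human myeloid neoplasms. Many SR protein and hnRNP genes also make transcripts with a premature stop that are degraded, and counts per gene do not separate these from the coding ones.

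More splicing and hnRNP genes were higher than lower in KO. Of the 73 tested, 43 rose and 13 fell in KO at an adjusted p under 0.05 (edgeR's quasi-likelihood test, Benjamini-Hochberg over all 8358 genes, with trimmed mean of M values, TMM, scaling). Over all genes tested, 82.0% passed, 39.6% as higher and 42.4% as lower, so that passing the test alone sets no gene apart in these data. The share of members that rose was 58.9%, and the share that fell was 17.8%. The median log2 fold change of the members was 0.32, against -0.06 over all genes. Most changes were small. Only 9 of 73 members (12.3%) passed with at least a 2-fold change, 8 of them higher, against 46.6% of all genes. The values of KO lay above those of Con without overlap for 44 members and below for 16 (all genes: 40.5% above and 44.0% below, 84.5% in all). Without Con replicate 3 the number of members lower in KO was 8 and the number higher 39, while 38.1% of all genes were higher, 39.0% lower and 77.0% either. Con replicates 2 and 3 were far more alike than any other pair, and if they came from 1 animal or 1 RNA, Con would hold 2 independent samples. With both summed as 1 sample, 38 members were higher and 9 lower, where 38.0% of all genes were higher, 39.9% lower and 77.9% either.

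How many members rose depended on the scaling, which sets the level at which a gene counts as unchanged. The TMM factors were 0.876 to 0.900 in KO and 1.11 to 1.17 in Con. With library size only, 23 members were higher and 25 lower in KO (all genes: 29.8% higher, 53.6% lower and 83.3% either), and their median was -0.04. The median of all genes shifted by -0.35 in the same step, to -0.41. Upper-quartile factors gave 36 members higher and 16 lower, where 37.2% of all genes were higher, 45.2% lower and 82.4% either. Factors of the relative log expression (RLE) method gave 45 higher and 10 lower, where 40.9% of all genes were higher, 40.6% lower and 81.5% either. Relative to the median of all genes, the members stood 0.38 higher with TMM and 0.37 higher with library size only. A change of scaling shifts all genes nearly alike, so the likeness of these values is no test. Under both scalings 23 members were higher and 13 lower, 20 were higher with TMM only, 12 were lower with library size only, and 5 passed under neither. Of the 43 that rose with TMM, 9 had a negative fold change with library size only. The 74 genes together took 1.03%, 1.12% and 1.10% of all counts in KO, against 1.14%, 1.03% and 1.03% in Con, ranges that overlap.

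**Figure D1:**
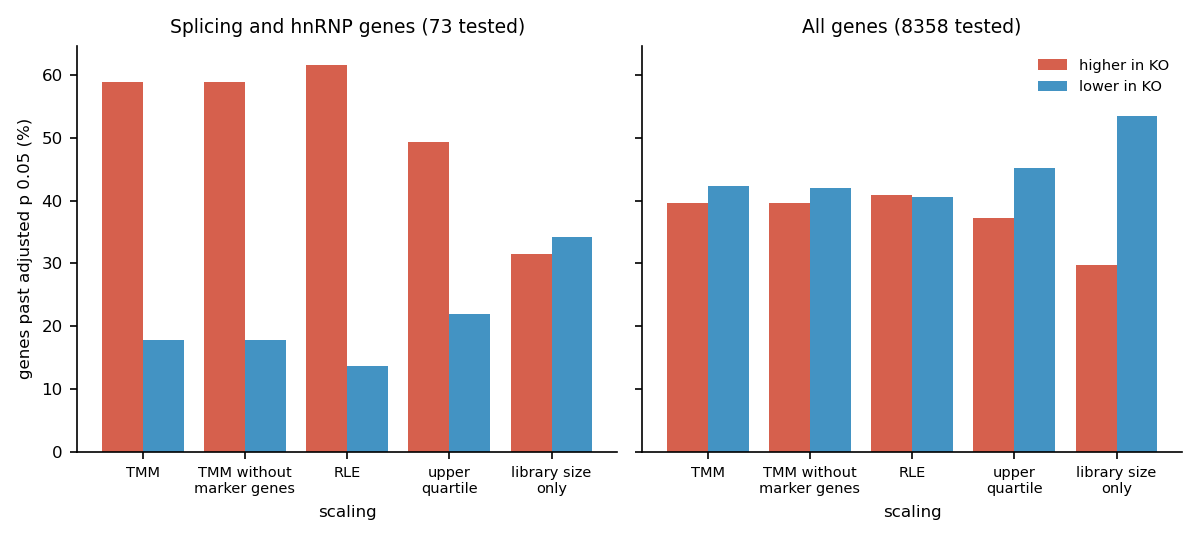
Percentage of genes past an adjusted p of 0.05 (vertical axis) under 5 scalings (horizontal axis), for the 73 splicing and hnRNP genes (left) and all 8358 genes (right). Red bars are genes higher in KO and blue bars genes lower in KO. The members lead upward with TMM (58.9% and 17.8%) and are near even with library size only (31.5% and 34.2%), where all genes lead downward (29.8% and 53.6%).

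Late neutrophil and erythroid markers differed more between the groups, with median log2 fold changes of 7.37 and 5.94, than any splicing or hnRNP gene. Late neutrophil genes took 14.9% to 17.1% of counts in KO and 0.288% to 0.295% in Con (14 of 14 higher). Erythroid genes took 1.53% to 2.18% in KO and 0.0591% to 0.0711% in Con (10 of 11 higher, 1 lower). Macrophage genes took 0.0675% to 0.122% in KO and 2.36% to 3.34% in Con (8 of 10 lower, 2 higher). T and NK cell genes were higher in KO for 7 of 7 and B cell genes for 1 of 3. Stromal and endothelial genes were higher for 3 of 4 (1 lower), although they took 0.0195% to 0.0395% of counts in KO and 0.0414% to 0.0446% in Con. Of 7 B cell markers listed 3 were in the table, and of 6 stromal and endothelial markers 4. None of the markers in the table was at 0 in every library of a group. Of 4 genes of progenitors and leukemia, 1 was higher and 2 were lower. The part of this cell makeup in the results below was not tested, and in bulk RNA fewer cells of a type and less RNA per cell cannot be told apart. TMM factors computed without the neutrophil, erythroid and macrophage markers gave 43 members higher, 13 lower and a median of 0.32, where 39.7% of all genes were higher, 42.1% lower and 81.8% either. Levels are given as CPM, the count relative to the library's total after TMM scaling. Papola (18789) had 342, 361 and 314 CPM in KO and 284, 297 and 291 CPM in Con. Counts over the whole gene do not check the deletion, and its log2 fold change was 0.22 (adjusted p = 0.0291), and -0.13 with library size only. This call was lost with upper-quartile factors, without KO replicate 1 or 2 and without any 1 Con library.

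Promoters of 57 members are held by the RefSeq tables for build GRCm38.p6. The 4 below are those of the SR-type genes with the largest rise, Tra2a and Srsf6, and of the U5 snRNP protein genes Prpf8 and Snrnp200, which fell. Each runs 5′ to 3′ on the gene's strand over the 250 bases before the transcription start. They lie at chr6:49264053-49264302 (minus strand, Tra2a), chr2:162931258-162931507 (plus strand, Srsf6), chr11:75486527-75486776 (plus strand, Prpf8) and chr2:127208136-127208385 (plus strand, Snrnp200). Capitals mark matches on either strand to the motifs searched, which were the ETS core CCGGAAG, the E-box CACGTG, the GC box GGGCGG, the CCAAT box CCAAT, the TATA box TATAAA and the CRE core ACGTCA.
Tra2a: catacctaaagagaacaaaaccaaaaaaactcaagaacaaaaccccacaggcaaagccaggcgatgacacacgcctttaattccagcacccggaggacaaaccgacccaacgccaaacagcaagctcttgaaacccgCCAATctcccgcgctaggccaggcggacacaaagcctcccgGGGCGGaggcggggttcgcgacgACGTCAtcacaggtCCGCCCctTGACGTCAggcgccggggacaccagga
Srsf6: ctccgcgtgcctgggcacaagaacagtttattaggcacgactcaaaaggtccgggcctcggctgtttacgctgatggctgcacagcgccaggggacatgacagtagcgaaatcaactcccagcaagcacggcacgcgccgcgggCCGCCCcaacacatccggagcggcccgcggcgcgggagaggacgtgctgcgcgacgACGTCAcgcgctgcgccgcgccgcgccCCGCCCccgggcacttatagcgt
Prpf8: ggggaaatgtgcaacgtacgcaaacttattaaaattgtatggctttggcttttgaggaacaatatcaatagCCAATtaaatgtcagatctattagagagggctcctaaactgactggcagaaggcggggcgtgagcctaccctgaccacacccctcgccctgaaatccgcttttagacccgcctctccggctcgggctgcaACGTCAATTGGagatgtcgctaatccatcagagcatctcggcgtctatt
Snrnp200: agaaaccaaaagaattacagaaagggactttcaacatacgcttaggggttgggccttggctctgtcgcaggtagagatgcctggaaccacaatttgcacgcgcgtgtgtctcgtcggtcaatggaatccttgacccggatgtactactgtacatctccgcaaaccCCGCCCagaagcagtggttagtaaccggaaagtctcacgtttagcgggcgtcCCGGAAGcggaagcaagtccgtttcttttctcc

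The Tra2a promoter held 3 CRE cores, of which a pair overlaps on opposite strands, besides 2 GC boxes and 1 CCAAT box. In Srsf6 there were 1 CRE core and 2 GC boxes, in Prpf8 2 CCAAT boxes and 1 CRE core directly beside the second of them, and in Snrnp200 1 ETS core and 1 GC box. None of the 4 held a TATA box or an E-box. Tra2a and Srsf6 had 20 and 35 CpG dinucleotides and 58.8% and 68.4% G and C, and Prpf8 and Snrnp200 had 13 and 17 CpG and 49.6% and 52.4%. Over all 72 promoters of members, 26.4% held the ETS core, against 12.7% of 8416 promoters of genes tested and 6.91% of all 32851. The ETS core was in 9 of 40 promoters of members that rose (22.5%) and in 5 of 12 of members that fell (41.7%). The GC box was in 67.5% of the promoters of members that rose and in 33.3% of those that fell, against 36 of 72 over all members, 54.8% of promoters of genes tested and 32.7% of all promoters. The CRE core, searched for after the promoters had been seen, was in 12.5% of the promoters of members and in 9.30% of those of genes tested (all promoters: 6.47%). Promoters of 1 gene can overlap, and a match describes letters only.

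SR proteins and Tra2a had the highest medians of the families. Srsf4, Srsf6 and Srsf9 passed as higher in KO (median 1.02), and so did Tra2a, whose protein activates exons in the manner of SR proteins. Tra2a (gene 101214) had 394, 480 and 531 CPM in KO, against 132, 133 and 135 CPM in Con. All KO libraries were far above the narrow range of Con, with KO replicate 1 the lowest of them. The rise was 3.51-fold, or 1.81 on the log2 scale (SE 0.11, adjusted p = 4.29e-07).

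Srsf6 (67996) is a splicing activator of the SR family. It had 464, 506 and 556 CPM in KO and 207, 205 and 202 CPM in Con. This came to 1.31 on the log2 scale (SE 0.09, adjusted p = 7.1e-07). Srsf4 (57317), a longer relative of Srsf6, had 190, 188 and 204 CPM in KO and 98.5, 96.0 and 93.2 CPM in Con, a log2 fold change of 1.02 (SE 0.08). None of these libraries overlapped between the groups. Srsf9, named after its values were seen, had 57.7, 63.7 and 56.9 CPM in KO and 51.7, 47.7 and 54.3 CPM in Con. Its call (0.21, adjusted p = 0.0482) was lost without any 1 of 5 libraries and with library size only, where its fold change was -0.14.

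**Figure D2:**
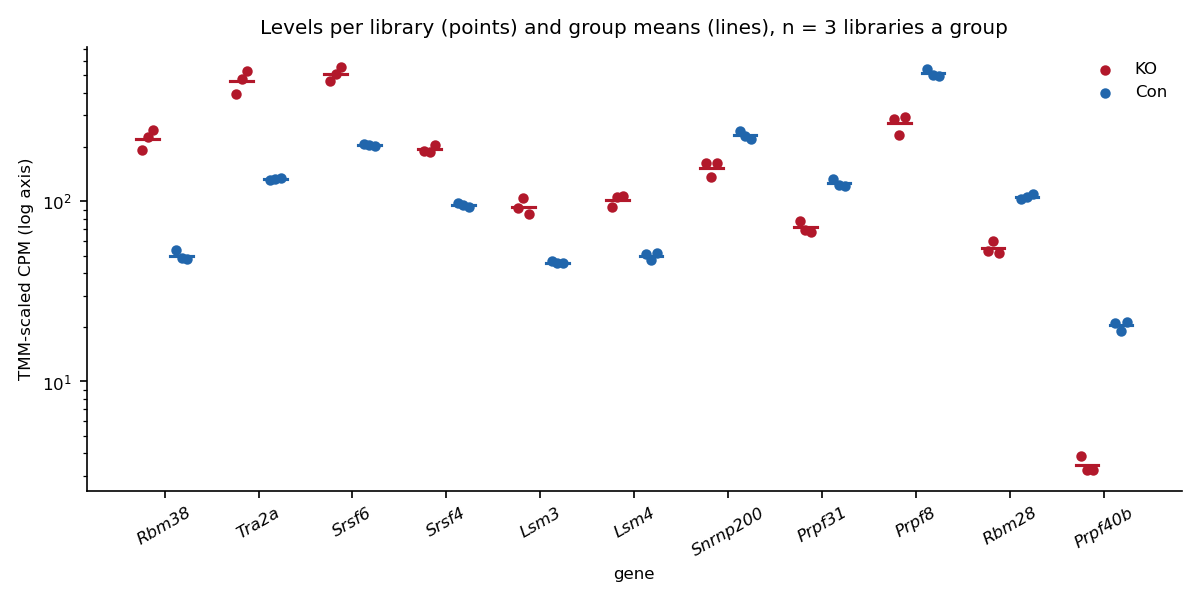
TMM-scaled CPM on a log axis (vertical) of 11 splicing genes (horizontal) in each library, with 3 KO libraries (red, left) and 3 Con libraries (blue, right) a gene and lines at the group means. Rbm38, Tra2a, Srsf6, Srsf4, Lsm3 and Lsm4 lie higher in every KO library than in any Con library, and Snrnp200, Prpf31, Prpf8, Rbm28 and Prpf40b lie lower.

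The hnRNPs were the most abundant members, and none fell with TMM scaling. Of 11 tested, 8 rose and 3 did not pass (median 0.52), whereas with library size only 5 were higher and 3 lower (median 0.16). The shares of all genes were 39.6% higher and 42.4% lower, and 29.8% and 53.6% with library size only. Hnrnpk (15387), a poly(C)-binding protein, had 1125, 1216 and 1128 CPM in KO and 798, 765 and 758 CPM in Con. Its log2 fold change was 0.58 (SE 0.08, adjusted p = 1.02e-04). Hnrnpul2 had 566, 583 and 573 CPM in KO and 370, 377 and 379 CPM in Con, which gave 0.61 (SE 0.07). Both ranges were narrow and apart. The largest change of the family, named after its values were seen, was that of Hnrnpdl, a relative of the AU-rich element binding protein gene Hnrnpd, at 0.88 (SE 0.11).

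Hnrnpa1, which represses many exons, is named here for its contrast with these genes after its values were seen. It had 749, 812 and 856 CPM in KO and 934, 838 and 843 CPM in Con. The groups overlapped and the test was not passed (-0.11, adjusted p = 0.261), although with library size only it was called lower (-0.47). Per kilobase of reference transcript, Hnrnpk had 432 ± 19.2 CPM in KO and 289 ± 7.96 CPM in Con, and Hnrnpa1 had 420 ± 27.9 CPM in KO and 455 ± 28.2 CPM in Con (SD, n = 3 libraries each). These were the highest levels of the members in either group. Hnrnpa1 led in Con and overlapped with Hnrnpk in KO.

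Members that recognise the 3′ splice site moved little. U2af1, which reads the AG at the end of the intron, had 166, 188 and 183 CPM in KO and 136, 122 and 126 CPM in Con (0.48, SE 0.08, adjusted p = 4.32e-04). U2af2, which binds the polypyrimidine tract, had 340, 352 and 379 CPM in KO and 304, 283 and 273 CPM in Con (0.32, adjusted p = 0.00547). Neither gene overlapped between groups on this scale. Neither passed with library size only, and that of U2af2 turned to -0.04.

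Within the SF3A and SF3B complexes of the U2 snRNP, subunits differed in direction. Of 7 tested, 2 rose and 2 fell, shares below those of all genes (39.6% higher and 42.4% lower). Their median of 0.07 turned to -0.016 under upper-quartile factors and to -0.29 under library size only. Sf3b2, a large SF3B subunit, had 571, 546 and 539 CPM in KO and 311, 301 and 297 CPM in Con (0.86, SE 0.08, adjusted p = 4.03e-06). Sf3b6, the subunit at the branch point adenosine, named after its values were seen, was at 0.96 (SE 0.09). Their partner Sf3b3 had 233, 214 and 224 CPM in KO and 277, 255 and 252 CPM in Con. Although these groups did not overlap, the call of Sf3b3 (-0.23, adjusted p = 0.0234) was lost with RLE factors, with DESeq2, without KO replicate 2 and without any 1 Con library (adjusted p up to 0.0933). The call of Sf3b4, the other member that fell (-0.23, adjusted p = 0.0355), was lost as well with RLE factors, with DESeq2, without KO replicate 1 and without any 1 Con library. Sf3a1, Sf3a2 and Sf3a3, the SF3A subunits, did not pass (0.07, 0.20 and 0.07).

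Genes of the Sm ring, the heptamer of proteins around each of the U1, U2, U4 and U5 RNAs, mostly rose. Of 6 tested, 5 rose and none fell (median 0.58), and with library size only 3 rose and none fell (0.22). Beside them, 39.6% of all genes were higher and 42.4% lower (29.8% and 53.6% with library size only). Snrpe (20643) had 128, 151 and 136 CPM in KO and 78.9, 72.6 and 75.3 CPM in Con, which gave 0.87 (SE 0.09, adjusted p = 1.06e-05). Snrpb had 267, 303 and 302 CPM in KO and 165, 170 and 163 CPM in Con (0.81, SE 0.08). Both were apart from Con in every KO library. Of the other ring genes, Snrpd1 was at 0.71, Snrpd2 at 0.45, Snrpd3 at 0.35 and Snrpf, which did not pass, at 0.13. The call of Snrpd3 was lost without KO replicate 2 and without Con replicate 2.

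Snrpn, a paralog of Snrpb known from neurons, was the member that did not pass the filter on low counts. It had 2, 5 and 1 counts in KO and 4.5, 2.66 and 3.5 counts in Con, and overlaps Snurf on the same strand. Genes of proteins found in U1 but not in the ring moved apart. Snrpc rose (0.41), Snrpa did not pass (-0.09), and Prpf40b fell. By library size only, Snrpc did not pass (0.06) and Snrpa was lower (-0.45).

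Prpf40b (54614), the counterpart of a yeast U1 factor that bridges both ends of the intron, had the largest fall of all members. It had 3.86, 3.21 and 3.22 CPM in KO and 21.0, 19.0 and 21.4 CPM in Con. It was 5.95-fold lower in KO (-2.57, SE 0.16, adjusted p = 3.82e-07). Per kilobase its levels were among the lowest of the members, with 1.04 CPM in KO and 6.19 CPM in Con.

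Members of the tri-snRNP went mostly down. Of 6 that match the symbol rule, 4 fell and 1 rose (median -0.49), and with library size only 5 were lower and none higher (-0.84). Among all genes 42.4% were lower and 39.6% higher (53.6% and 29.8% with library size only). Prpf8 (192159), the protein that cradles the catalytic RNA core in the U5 snRNP, had 286, 233 and 295 CPM in KO and 546, 500 and 496 CPM in Con. The highest KO library lay well under the lowest Con library, and KO replicate 2 was the lowest. It fell by 0.92 on the log2 scale (SE 0.10, adjusted p = 2.47e-05).

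Snrnp200 (320632), the helicase that unwinds the U4/U6 duplex, had 163, 136 and 163 CPM in KO and 247, 231 and 223 CPM in Con (-0.60, SE 0.09, adjusted p = 2.21e-04). Prpf31, which holds U4/U6 and U5 together, had 77.6, 69.6 and 67.7 CPM in KO and 132, 124 and 121 CPM in Con (-0.81, SE 0.09). Neither gene overlapped between groups, and KO replicate 2 was again the lowest for Snrnp200 but not for Prpf31. The fourth to fall was Prpf4 (-0.37), and its U4/U6 partner Prpf3 did not pass (-0.20, adjusted p = 0.0654). The exception was Snrnp27, which had 36.5, 42.1 and 32.6 CPM in KO and 28.7, 25.2 and 25.3 CPM in Con (0.49, adjusted p = 0.00385). It did not pass with library size only (0.13). Tri-snRNP genes outside the symbol rule, named after their values were seen, were mixed with TMM scaling. Eftud2, the U5 GTPase gene, and Txnl4a did not pass (-0.15 and -0.02). Ppih, a U4/U6 protein gene, rose (0.71), and Ddx23, listed here with the helicases, fell (-0.28, adjusted p = 0.0147). With library size only Eftud2, Txnl4a and Ddx23 were lower (-0.50, -0.38 and -0.64).

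Among PRPF factors as a family, 3 rose and 4 fell of 10 tested (median -0.16, or -0.51 with library size only). Neither share was larger than that of all genes (39.6% higher and 42.4% lower). Those that fell were Prpf40b and 3 of the tri-snRNP described above. Prpf18, which acts in the second catalytic step, had 123, 108 and 116 CPM in KO and 61.4, 62.8 and 59.4 CPM in Con. It rose by 0.92 (SE 0.08, adjusted p = 4.78e-06), in every library and under each scaling. Prpf38a and Prpf38b, factors of spliceosome activation, rose with TMM (0.53 and 0.26) but did not pass with library size only (0.17 and -0.09).

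**Figure D3:**
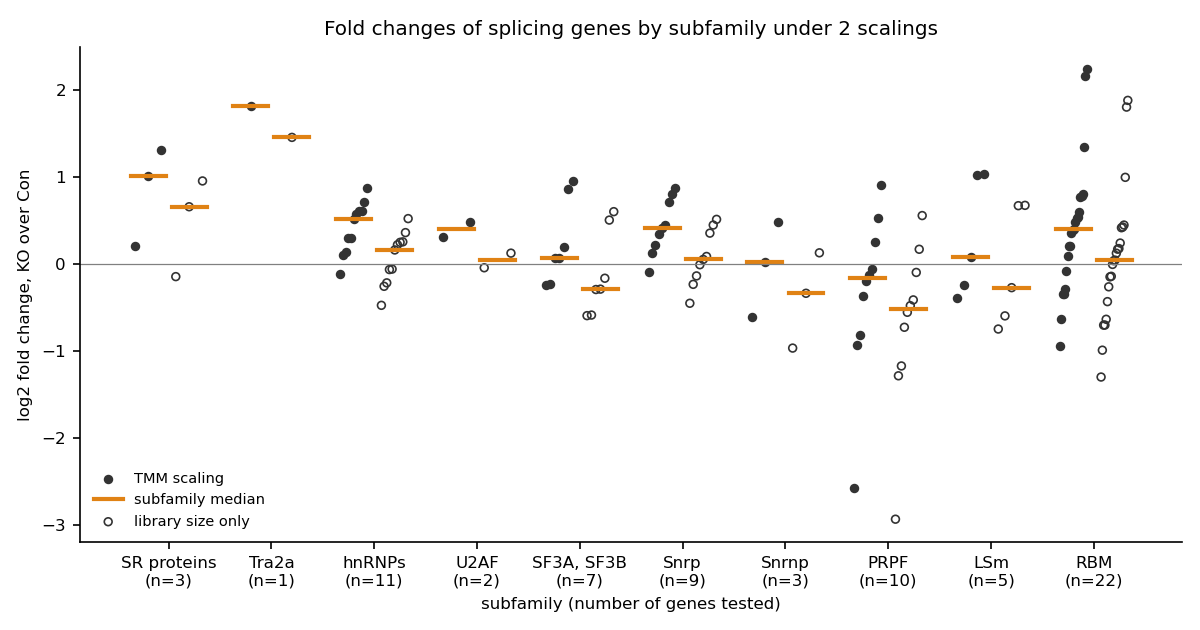
Log2 fold change of KO over Con (vertical axis) of each of the 73 tested genes, by subfamily (horizontal axis). Filled points use TMM scaling, open points library size only, and orange lines are subfamily medians. The SR proteins, Tra2a and hnRNPs keep medians above 0 under both, the PRPF factors stay below 0 under both, and those of SF3A and SF3B, Snrnp and LSm change sign.

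Of 5 LSm genes tested, 2 rose and 2 fell, near the shares of all genes (39.6% higher and 42.4% lower). Lsm3 and Lsm4 belong to the LSm ring on U6 RNA and also to the cytoplasmic ring that takes part in mRNA decay. Lsm3 had 91.6, 104 and 84.8 CPM in KO and 46.7, 45.4 and 45.2 CPM in Con (1.03, SE 0.09), and Lsm4 had 92.7, 106 and 107 CPM in KO and 50.8, 47.4 and 51.5 CPM in Con (1.03, SE 0.09). Both were higher in every KO library and were called higher under all 5 scalings.

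Of the other 3, none was higher. Lsm14b, of the translational repressors related to the yeast protein Scd6, had 36.8, 37.7 and 37.7 CPM in KO and 44.7, 50.5 and 51.9 CPM in Con (-0.39, SE 0.09, adjusted p = 0.00293). Lsm12 (-0.24, adjusted p = 0.0345) fell as well, but its call was lost with RLE factors, with DESeq2, under a stricter filter, with a replicate block, without KO replicate 1 and without any 1 Con library (adjusted p up to 0.120). Lsm1, which defines the cytoplasmic decay ring, overlapped between groups (0.08, adjusted p = 0.629). The family's median of 0.08 turned to -0.27 under library size only and to -0.0018 under upper-quartile factors.

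RBM proteins share an RNA recognition motif rather than a function, and 14 of 22 rose while 4 fell (median 0.40). By library size only 7 were higher and 6 lower (0.04). All genes had 39.6% higher and 42.4% lower with TMM, and 29.8% and 53.6% with library size only. With library size only the share of RBM genes that was higher was near that of all genes. Rbm38 (56190), a regulator of RNA stability and splicing that is a p53 target and acts in late red cell maturation, rose most among the well expressed members. It had 193, 227 and 250 CPM in KO and 53.4, 48.3 and 47.9 CPM in Con, a 4.48-fold rise (2.16, SE 0.11, adjusted p = 1.27e-07). KO replicate 1, the lowest KO library for Rbm38, also had the lowest erythroid share of KO (1.53%), and the part of erythroid cells in this rise was not tested.

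The pseudogene Rbm3-ps had 11.2, 9.99 and 7.21 CPM in KO and 2.12, 1.81 and 2.08 CPM in Con (2.24, SE 0.23). Its counts were not whole in any library, and reads may be shared with its parent gene, so this value is uncertain. The same holds for the near copies Rbm12b1 and Rbm12b2 (0.40 and 0.53). The call of Rbm12b1 was lost without any 1 of 5 libraries and with library size only.

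RBM proteins that are part of the spliceosome rose in 4 of 5 cases, and with library size only in 2 of 5 (all genes: 39.6% and 29.8%). Rbm17, a U2-related factor at the 3′ splice site, had 165, 200 and 195 CPM in KO and 145, 142 and 137 CPM in Con (0.40, SE 0.09, adjusted p = 0.00236). With library size only it did not pass (0.05). The activation factor gene Rbm22 (0.78) and the exon-skipping regulators Rbm10 (0.60) and Rbm5 (0.48) also rose, with Rbm5 not called with library size only. Rbm48, of the minor spliceosome, did not pass (0.10).

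Of the 4 RBM genes that fell, Rbm28 had the smallest p. Rbm28, the mouse counterpart of a yeast ribosome assembly factor, had 53.3, 60.6 and 52.0 CPM in KO and 103, 105 and 110 CPM in Con (-0.94, SE 0.09, adjusted p = 6.07e-06). Rbm34, a nucleolar protein, had 27.7, 29.0 and 26.3 CPM in KO and 43.6, 41.7 and 43.2 CPM in Con (-0.63, SE 0.09). No KO library reached the range of Con for either gene. The other members that fell were Rbm19, also a ribosome assembly factor, and Rbm45 (-0.34 each). Without Con replicate 3 neither of these calls held, and that of Rbm19 was lost also without Con replicate 2 and with DESeq2.

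Ratios of the counts of 2 genes in the same library do not depend on the scaling between libraries. The pairs were chosen after their values had been seen. Each set a gene that rose over one that fell, did not pass or, for Srsf9, rose less. Their direction follows from the choice, so no test of them is given. Tra2a counts over Prpf8 counts were 1.38, 2.06 and 1.80 in KO and 0.241, 0.266 and 0.273 in Con. Sf3b2 over Sf3b3 was 2.45, 2.55 and 2.40 in KO and 1.12, 1.18 and 1.18 in Con. These ratios did not overlap between the groups.

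The same was true of Sf3b6 over Sf3b4, with 1.25 ± 0.0992 in KO and 0.542 ± 0.0255 in Con (SD, n = 3 libraries each, as below). Lsm3 over Lsm12 was 2.19 ± 0.225 in KO and 0.905 ± 0.00306 in Con. Srsf6 over Srsf9 was 8.59 ± 1.03 in KO and 4.01 ± 0.294 in Con. Snrpe over Snrpa was 1.62 ± 0.0987 in KO and 0.834 ± 0.0381 in Con, and Hnrnpdl over Hnrnpa1 was 0.494 ± 0.0444 in KO and 0.249 ± 0.0194 in Con. These 5 ratios did not overlap between the groups either.

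Members were set in 3 classes by the length of their transcripts. The bounds split the tested members evenly, and the same bounds were then used for all genes. Of 24 members with a reference transcript of up to 2011 nucleotides, 16 rose and 2 fell (median 0.43). Between 2011 and 3251 nucleotides 14 of 24 rose and 3 fell (0.31), and above that 12 of 24 rose and 8 fell (0.14). All genes showed the same order, with 45.7%, 39.3% and 35.4% higher and medians of 0.16, -0.06 and -0.23. Across 72 members, Spearman's rho between transcript length and log2 fold change was -0.28, and across 8200 genes it was -0.13. With coding length the values were -0.35 and -0.12. Genes share their libraries and are not independent, so these values are descriptions.

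**Figure D4:**
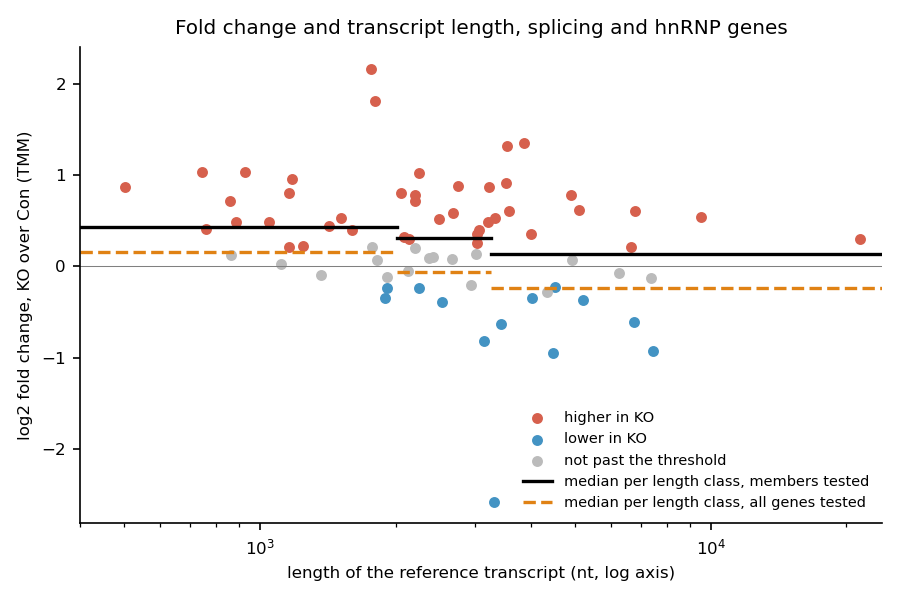
Log2 fold change of KO over Con with TMM scaling (vertical axis) against the length of the reference transcript in nucleotides on a log axis (horizontal), for 72 members. Black lines give the members' medians in 3 length classes (0.43, 0.31 and 0.14) and dashed orange lines those of all genes (0.16, -0.06 and -0.23). With library size only, the median of all genes is lower by 0.35 (log2).

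Other splicing genes, listed by function, leaned upward with TMM scaling, though less than the members. The lists held 140 genes, of which 88 were in the table. Of 88 tested, 44 rose and 18 fell (median 0.22), where 39.6% of all genes were higher and 42.4% lower (-0.06). With library size only 25 were higher and 42 lower (-0.14), where 29.8% of all genes were higher and 53.6% lower (-0.41). The share of other splicing genes that was higher was then near that of all genes. Kinases that phosphorylate SR proteins rose in 4 of 5 cases, and in 3 of 5 with library size only. Clk1, which phosphorylates SR proteins in the nucleus, had 296, 309 and 383 CPM in KO and 68.0, 76.9 and 72.4 CPM in Con, a 4.55-fold rise (2.19, SE 0.11, adjusted p = 1.43e-07). Srpk1, their cytoplasmic kinase, had 47.7 to 51.3 CPM in KO and 99.0 to 103 CPM in Con (-1.02, SE 0.08, adjusted p = 1.51e-06). Both kinases lay apart between the groups, in opposite directions under all scalings.

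Of 9 genes outside the symbol rule listed for the minor spliceosome, the 5 in the table rose, and 4 with library size only. The members Snrnp35 and Rbm48, which also belong to it, did not pass (0.02 and 0.10), and Snrnp35 was lower with library size only (-0.33). Armc7, which binds Rbm48, had 92.4, 99.2 and 125 CPM in KO and 18.5, 16.6 and 16.8 CPM in Con (2.61, SE 0.13, adjusted p = 1.05e-07). Exon junction and export genes rose in 8 of 12 cases and fell in 1, with library size only in 5 and 3. Beside both lists, 39.6% of all genes were higher and 42.4% lower (29.8% and 53.6% with library size only). Sap18 was at 1.92 and the THO subunit gene Thoc1 at -0.22, and counts of both were not whole in any library. The call of Thoc1 was lost with RLE factors, with DESeq2, under a stricter filter, without KO replicate 1 and without Con replicate 2 or 3 (the sign kept in each).

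Of genes that assemble snRNPs, 7 of 15 were lower and 3 higher (median -0.22, or -0.58 with library size only), beside 42.4% of all genes lower and 39.6% higher. Gemin4, of the SMN complex, had 13.7, 9.87 and 10.7 CPM in KO and 36.9, 32.9 and 29.2 CPM in Con (-1.53, SE 0.15, adjusted p = 1.03e-05). Its partner Gemin7 had 42.9, 47.0 and 42.2 CPM in KO and 19.3, 19.6 and 18.1 CPM in Con (1.21, SE 0.10). Spliceosomal helicases were even at 3 higher and 3 lower of 11 (median -0.10), but with library size only none was higher and 8 were lower. Ddx39b, which acts in early assembly and mRNA export, was at 0.47 (not called with library size only, 0.11) and Dhx35 at -0.85. Of the Prp19 complex and late factors 8 of 20 rose and 3 fell (4 and 12 with library size only), among them Syf2 at 1.20 and Cwf19l1 at -0.54. The share of these factors that rose was near the 39.6% of all genes. With library size only, 29.8% of all genes were higher and 53.6% lower.

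Tissue-restricted and other splicing regulators rose in 13 of 20 cases and fell in 3, and with library size only in 6 and 7. Over all genes 39.6% were higher and 42.4% lower (29.8% and 53.6% with library size only). Celf2, a regulator abundant in blood cells, had 333, 362 and 342 CPM in KO and 111, 104 and 100.2 CPM in Con (1.72, SE 0.08, adjusted p = 7.94e-08). Rbfox2, which reads UGCAUG elements beside exons, had 5.84, 2.84 and 3.86 CPM in KO and 34.2, 42.5 and 45.7 CPM in Con (-3.28, SE 0.22, adjusted p = 7.71e-07). Neither regulator overlapped between the groups, and Rbfox2 had the larger change.

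The calls were unevenly firm. Of 43 members that rose, 23 kept the call under all 16 other settings tried, and of 13 that fell, 8 did. The call was lost without 1 of the 6 libraries for 6 of those that rose and 5 of those that fell. Of the 8 that kept a lower call, Prpf8, Prpf31, Prpf4 and Snrnp200 are of the tri-snRNP. For 14 members another protein-coding gene overlaps, on the opposite strand for 10, and the sources used here give no strand setting for the counting. Hnrnpk, Sf3b3, Snrpa and Snrpd3 are among those with a neighbour on the opposite strand, and reads of both genes cannot be told apart there.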

How the data were processed

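The authors deposited 1 table of estimated counts per gene, some of them not whole, for 6 libraries. RNA was extracted with TRIzol and libraries were made with a kit for mRNA, per the labels' protocols. GRCh38 is named as the genome build per the submitters' processing notes, although the table lists mouse genes. No aligner, counting tool or strand setting is given in the sources used here. Counts that are not whole can come from reads divided between overlapping or near-identical genes, which makes such genes uncertain, and 14 members had them.

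Counts were rounded, genes were filtered with filterByExpr (8358 of 9295 tested), scaled by TMM, and KO was compared with Con by edgeR 4.0.16 (glmQLFit, robust, and glmQLFTest, two-sided) in R 4.3.3, with Benjamini-Hochberg adjustment over all genes tested and a threshold of 0.05. No covariate was used. CPM values are TMM-scaled unless stated. Alternatives were other scalings, DESeq2 1.42.0, limma-voom (limma 3.58.1), other filters, each library left out, both similar Con libraries summed, and the replicate number as a block. The steps were tested on simulated data. The simulation changed few genes, evenly up and down, so it did not test the scaling where most genes differ.

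The members, subfamilies and gene lists were chosen with earlier results of these data known. Genes were named by rule: in each subfamily the smallest p in each direction and the highest mean CPM, the 6 highest and 6 lowest fold changes among called members whose mean log2 CPM was 2 or more, and the smallest p in each direction in each other list. Other members were named after their values were seen. The values of 1 member are not reported here, and the counts include it. Con replicates 2 and 3 were closer than the other pairs (chi-square over its degrees of freedom 1.68, against 17.7 to 23.7), but differed by more than sampling noise, and stayed separate. Transcript and coding lengths are those of 1 GENCODE transcript a gene.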

Additional observations from a re-analysis of the deposited data

How the results depend on the processing

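With library size only, the median of all genes was -0.41 (29.8% higher, 53.6% lower) and that of the members -0.040 (23 higher, 25 lower). The median was then 0.66 for SR proteins, 1.46 for Tra2a, 0.16 for hnRNPs (5 higher, 3 lower), 0.044 for U2AF (0 higher), -0.29 for SF3A and SF3B (4 lower), 0.056 for Snrp (3 higher, 1 lower), -0.33 for Snrnp (0 higher, 2 lower), -0.51 for PRPF (1 higher, 7 lower), -0.27 for LSm, 0.044 for RBM (7 higher) and -0.14 for the other splicing genes (25 higher, 42 lower). Papola (-0.13, adjusted p = 0.187) and U2af2 (-0.040, adjusted p = 0.697) changed sign. With upper-quartile factors the medians were 0.23 for the members, -0.14 for all genes, 0.93 for SR proteins, 0.31 for U2AF, -0.064 for Snrnp, -0.25 for PRPF, 0.31 for RBM and 0.13 for other splicing genes. With RLE factors and with DESeq2 the members' median was 0.37, that of all genes -0.0036 and -0.0033, that of Snrnp 0.077, that of RBM 0.45 and that of other splicing genes 0.28, and 0 of SF3A and SF3B and 1 LSm gene were lower. The median of all genes was -0.033 without a filter. With the stricter filter 1 SF3 and 1 LSm gene were lower, and with Con replicates 2 and 3 summed 0 and 1. The cause of these differences beyond the shared shift was not tested.

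Leaving out 1 library at a time gave 8 to 14 members lower in KO, the 8 without Con replicate 3, and a median of 0.31 to 0.37 for the members and -0.063 to -0.023 for all genes. The number lower was 0 to 2 for SF3A and SF3B, 1 to 2 for LSm and 2 to 5 for RBM, and the median of other splicing genes was 0.20 to 0.27. Same-numbered libraries did not deviate together (r = -0.00166, 0.0277 and -0.00374 over genes), and KO replicate 1 was closest to Con replicate 2, so the numbers do not pair the samples. With the replicate number as a block, 40 members were higher and 12 lower (median 0.32), 1 LSm gene was lower, and over all genes 3270 were higher and 3496 lower, against 3310 and 3544 without it. TMM without marker genes and limma-voom moved none of the summaries given here. For the 38 genes named by rule, 581 of 608 values under alternatives kept direction and call, 25 missed the threshold and 2 changed sign.

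Each comparison rests on 3 libraries a group, and depth limits most the lowly counted members, of which Snrpn could not be tested.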
